A study of Homo sapiens with 6 samples.

Results

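The genes named ZNF followed by a number form the bulk of the C2H2 zinc finger genes, the most numerous class of transcription factor genes in the human genome. The expressed part of that class was examined in SW480, a long-used line of human colorectal adenocarcinoma cells. Members were chosen by symbol (ZNF, digits and at most 1 letter) and by level, a mean over the DMSO libraries of at least 1 FPKM (fragments scaled for transcript length and library size). There were 304 such genes among the 12982 genes of the deposited table. A further 59 ZNF genes lay under 1 FPKM. The mean FPKM in DMSO thus chose the members, and the same libraries stand below the line in every fold change of MPM-1 over DMSO, so low members can enter because they were read high in DMSO. For that reason the members are set beside other genes taken by the same cut, and beside ZNF genes taken by their level in MPM-1.

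The cells, with the genotype given as WT, received either DMSO, the solvent control, or MPM-1 for 24 h, with 3 libraries of each treatment. MPM-1 is a mitochondrial probe molecule that the sample labels call WT4. The dose of MPM-1 in this experiment is not given in the sources used here. The comparison asked which genes change their RNA level with MPM-1.

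A C2H2 finger is a short loop held by a zinc ion between a pair of cysteines and a pair of histidines, and fingers in a row read DNA. Many ZNF proteins also carry a KRAB box, which binds TRIM28 (KAP1). TRIM28 brings in the histone methyltransferase SETDB1, heterochromatin protein and DNA methyltransferases, and this machinery is best known for silencing transposable elements. KRAB genes arose by repeated duplication and many stand side by side in clusters on chromosome 19. Other ZNF proteins have no KRAB box and work in transcription, ribosome assembly, ribosome quality control or chromosome segregation.

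The libraries held between 31733667 and 40269820 counts. TMM factors, which scale for library composition, were 1.03 to 1.07 in DMSO and 0.930 to 0.969 in MPM-1. Replicates of a treatment differed by 15.4 to 33.2 times the counting variance per gene (chi-square per gene), so no library looked like a copy of another. Nothing in the labels says that the replicates came from separate cultures, so p-values measure the spread between these libraries only. Of 8 colorectal epithelial markers, 7 were in the table, at 20.8 to 2124 FPKM in DMSO. With MPM-1, KRT18 (log2 change 0.89), KRT19 (0.89), CDH1 (0.82) and KRT8 (0.42) were higher, CDX2 (-2.20) and VIL1 (-0.88) were lower, and EPCAM did not pass. Of 9 markers of other cell types, CD68 (37.2 FPKM) and COL1A1 (0.468 FPKM) were in the table and the other 7 were not listed. CD68 was higher with MPM-1 by 1.08 on the log2 scale and COL1A1 lower by a log2 change of -2.07, and the part of all these markers in the results below was not tested.

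The ZNF genes moved mostly down with MPM-1. The median log2 fold change over the 304 genes was -0.31, with quartiles of -0.82 and 0.03, and 223 of them had a negative value. At an adjusted p under 0.05 (edgeR's quasi-likelihood test, Benjamini-Hochberg over all 12982 genes), 126 ZNF genes (41.4%) were lower and 22 (7.24%) were higher, and 156 did not pass. Of all 12982 genes, 28.8% were lower and 27.7% were higher at that threshold. With the stricter call of an adjusted p under 0.01 and at least a 2-fold change, 44 ZNF genes were lower and 5 were higher, against 8.75% and 5.58% of all genes. The 3 libraries of MPM-1 all lay below the 3 of DMSO in 139 ZNF genes and all above in 27, against 33.3% and 31% of all genes. The other 11318 genes of at least 1 FPKM had a median of -0.01, and 29.1% of them were lower and 29% higher.

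The summed level was lower with MPM-1 too, for genes chosen by that level in DMSO. The FPKM of all 304 genes summed to 1972, 2015 and 1998 in the DMSO libraries and to 1623, 1812 and 1766 in the MPM-1 libraries, so all MPM-1 libraries lay below all DMSO libraries. The sum over all 12982 genes was also lower without overlap, from 592645, 580541 and 601040 to 559255, 562736 and 554709 FPKM. As a share of all counts these genes took 0.588%, 0.621% and 0.605% in DMSO and 0.475%, 0.535% and 0.519% with MPM-1. MPM-1 replicate 1 was the lowest library on both measures. A lower share in a bulk sample can be less RNA of the gene per cell or fewer cells that hold it, and these cannot be told apart here. Scaling by library size alone moved the median of the ZNF genes to -0.46 and that of the other genes to -0.16, so that the gap between them was nearly kept while all values shifted.

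Most ZNF genes were read at low levels, with a median of 3.39 FPKM in DMSO against 9.76 FPKM for the other genes. Low genes tended to be lower with MPM-1 in both sets, and more so among the ZNF genes. Between 1 and 2 FPKM, the median over 79 ZNF genes was -0.62, with 39 lower and 2 higher, and the 1267 other genes had -0.16, with 28.5% lower and 17.4% higher. Between 2 and 5 FPKM, the 117 ZNF genes had -0.38 (51 lower, 5 higher) and the 2329 other genes -0.09 (28.3% lower, 20.8% higher). Between 5 and 10 FPKM the medians were -0.19 for 64 ZNF genes and -0.01 for the others. Of these ZNF genes 22 were lower (34.4%) and 6 higher (9.38%), beside 29.3% and 29.8% of the others. At 10 FPKM and over, 44 ZNF genes had a median of -0.02 and the other 5572 genes had 0.03. There, 14 ZNF genes were lower (31.8%) and 9 higher (20.5%), beside 29.5% and 34.8% of the others. The distance between the medians of ZNF genes and others of like level thus narrowed as the level rose.

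**Figure D1:**
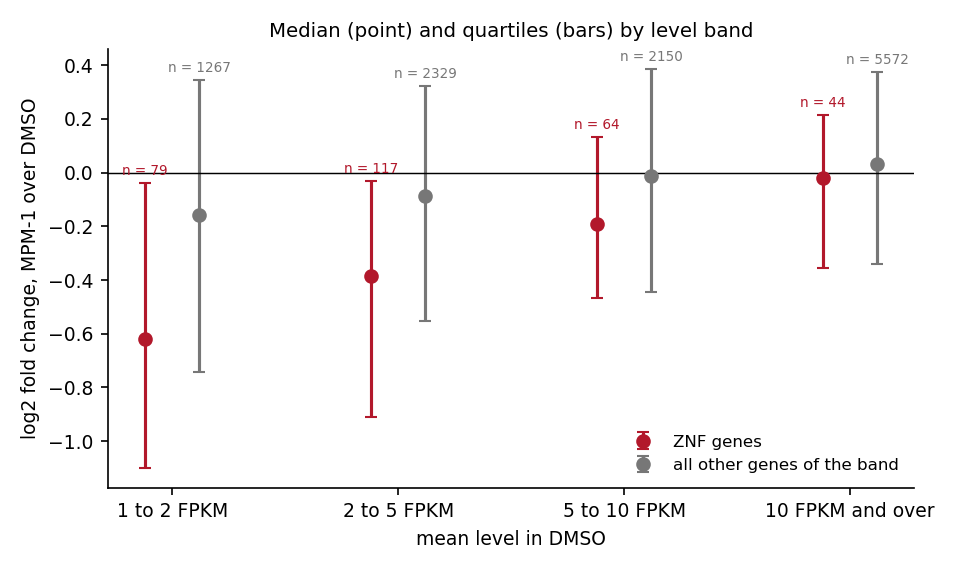
Median (point) and quartiles (bars) of the log2 fold change of MPM-1 over DMSO, for ZNF genes (red) and all other genes (grey), by mean level in DMSO in FPKM. The ZNF median goes from -0.62 in the band of 1 to 2 FPKM to -0.02 at 10 FPKM and over.

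Taking the genes by their level in MPM-1 instead turns the bias of the cut the other way. There were 249 ZNF genes with an MPM-1 mean of at least 1 FPKM, and their median was -0.18, with 81 lower (32.5%) and 22 higher (8.84%). The 10882 other genes chosen in that way had a median of 0.04, with 25.7% lower and 31.8% higher. In the band of 1 to 2 FPKM in MPM-1, 77 ZNF genes had a median of -0.51, with 36 lower and 0 higher, and the other genes had -0.21, with 31.5% lower and 14% higher. In the band of 2 to 5 FPKM, however, 28.9% of 90 ZNF genes were lower against 31.2% of the other genes, while 6.67% were higher against 18.1%. At 10 FPKM and over the order of the counts turned, with 7 of 39 ZNF genes lower (17.9%) and 14 higher (35.9%), beside 20.9% and 43.9% of the other genes. By the mean over all 6 libraries, 291 ZNF genes had a median of -0.27, with 114 lower and 22 higher, beside 0.01 for the other genes. The excess of lower over higher calls was therefore present under each way of choosing, and its size depended on the choice.

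At the edge of the cut, ZNF225 (1.04 FPKM) and ZNF792 (1.07 FPKM) were the members just inside, and ZNF618 (0.990 FPKM) and ZNF552 (0.987 FPKM) were just outside. For the 59 ZNF genes under 1 FPKM the median log2 fold change was -0.57. Of these, 22 were lower (37.3%) and 5 higher (8.47%), beside 28.8% and 27.7% of all genes. The table itself holds no gene with a total under 115 counts. The members' lowest total was 323 counts, so all 304 were tested.

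The members with a KRAB box carried most of the lower calls. A KRAB box was found in the translated transcripts of 186 of the 304 genes. Their median log2 fold change was -0.46, with 95 lower (51.1%) and 8 higher (4.30%). The 118 genes without it had a median of -0.17, with 31 lower (26.3%) and 14 higher (11.9%). The share of lower genes without a KRAB box was thus near the 28.8% of all genes, while the share of higher genes was under 27.7%. The KRAB genes were read at lower levels (median 2.96 against 4.90 FPKM) and had a lower GC content (median 42.4% against 51.6%), and the part of these in the difference was not tested across the groups. Within the band of 1 to 2 FPKM, 35 of 64 KRAB genes and 4 of 15 others were lower, and between 2 and 5 FPKM, 40 of 71 and 11 of 46. Between 5 and 10 FPKM 14 of 40 KRAB genes and 8 of 24 others were lower, with medians of -0.19 and -0.18. At 10 FPKM and over, 6 of 11 KRAB genes (median -0.33) and 8 of 33 others (median -0.01) were lower.

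**Figure D2:**
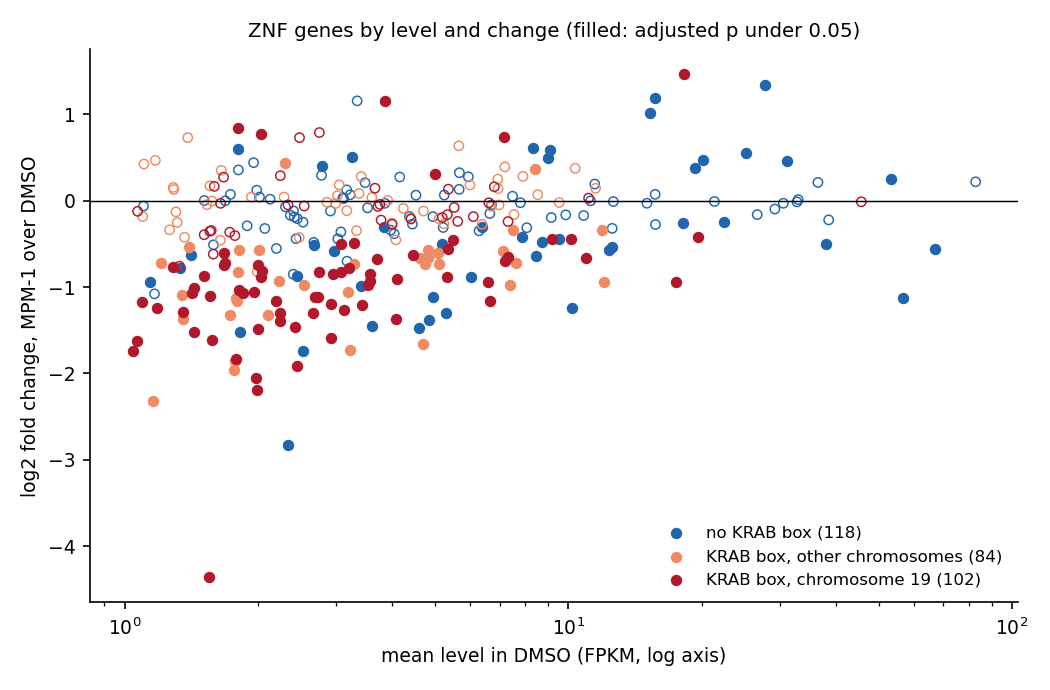
Each of the 304 ZNF genes by its mean level in DMSO (FPKM, log axis) and its log2 fold change of MPM-1 over DMSO, coloured by KRAB box and chromosome and filled where the adjusted p was under 0.05. Values under -1 lie mostly at low levels, and ZNF114 stands lowest at -4.36.

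Chromosome 19 held 125 of the genes, and their median was -0.56, with 71 lower and 10 higher. The 179 genes of all other chromosomes had -0.18, with 55 lower and 12 higher. Crossed with the KRAB box, the 102 KRAB genes on chromosome 19 had a median of -0.71, with 63 lower (61.8%) and 6 higher (5.88%). Per library, their median log2 difference of scaled counts from the DMSO mean was -0.91, -0.47 and -0.62 in MPM-1 replicates 1, 2 and 3. In the DMSO libraries it was -0.01, 0.06 and -0.04. The 84 KRAB genes elsewhere had -0.26, with 32 lower and 2 higher. The 23 genes on chromosome 19 without a KRAB box had -0.22, with 8 lower and 4 higher, and the 95 genes with neither feature had -0.16, with 23 lower and 10 higher. Of the 708 other genes of chromosome 19 with at least 1 FPKM, 33.3% were lower and 23.6% were higher, with a median of -0.06. In level, the 102 genes summed to 426, 450 and 420 FPKM in the DMSO libraries and to 314, 358 and 342 FPKM with MPM-1, and the 118 genes without a KRAB box to 1223, 1221 and 1234 FPKM and to 1064, 1175 and 1157 FPKM. The treatments did not overlap in either sum, nor in the FPKM sum over all genes given above.

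Away from chromosome 19 the calls were spread over many chromosomes. Chromosome 16 held 25 of the genes, with 10 lower and 2 higher, chromosome 7 held 23, with 8 lower and 2 higher, and chromosome 1 held 17, with 8 lower and 0 higher. On chromosome 12, 1 of 9 genes was lower and 0 were higher, and on chromosome 15, 0 of 6 were lower and 1 was higher. Chromosomes 9 and 17 each had 4 of 6 genes lower, and chromosome 22 had 3 of 3, with 0 higher on each. Of all genes, 28.8% were lower and 27.7% were higher. These numbers are small, and no difference between chromosomes was tested.

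The number of fingers moved with the values too. Genes with 0 to 4 fingers had a median of -0.11, those with 5 to 9 had -0.25, those with 10 to 14 had -0.40 and those with 15 or more had -0.60. In that last group 36 of 63 were lower (57.1%) and 2 higher, beside 28.8% and 27.7% of all genes. Finger number, KRAB box, low GC content and low level go together in these genes, and no test separated them. With an offset for GC content and transcript length in each library, 119 of the 304 genes were lower and 26 higher. The medians under that offset were -0.27 for the ZNF genes and 0.03 for the other genes of at least 1 FPKM. The share of all genes called under it is not given here. Of the 102 KRAB genes on chromosome 19, 62 were lower with the offset. Of the libraries left out in turn, DMSO replicate 2 gave the fewest lower calls among those 102 genes, 48.

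The genes with the largest falls were led by ZNF114, which had 120, 139 and 128 counts in DMSO and 9, 6 and 0 counts with MPM-1. Its mean fell from 3.36 ± 0.244 (SD, n = 3) to 0.164 ± 0.150 CPM (counts scaled by library size and TMM factor), a log2 change of -4.36 (SE 0.61) with edgeR's adjusted p = 0.000266. The fold rests on very few MPM-1 counts and was -5.09 without MPM-1 replicate 1 and -3.74 without MPM-1 replicate 3. ZNF114 lies on the plus strand at chr19:48270102-48287608 (GRCh38), overlapped by the antisense gene ZNF114-AS1. The counting and its strand setting are not given in the sources used here, so reads of the pair cannot be told apart.

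ZNF488, known from oligodendrocyte development, was the largest fall without a KRAB box. It had 280, 357 and 289 counts in DMSO and 24, 58 and 24 with MPM-1, from 8.0 ± 0.658 to 1.13 ± 0.656 CPM, a log2 change of -2.83 (SE 0.35) with edgeR's adjusted p = 0.00013. MPM-1 replicate 2 was the highest of its group and still far below every DMSO library. ZNF620 had 120, 144 and 136 counts in DMSO and 15, 32 and 18 with MPM-1, with a log2 change of -2.32 (SE 0.34), and it shares its strand with an overlapping neighbour, ZNF619. ZNF429 had 142, 178 and 177 counts against 21, 32 and 36, with a log2 change of -2.19 (SE 0.27). The locus LINC00664 overlaps it on the same strand. In ZNF620 and ZNF429 the treatments did not overlap.

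Other large falls varied more between libraries. ZNF180 had 158, 388 and 270 counts in DMSO and 34, 81 and 40 with MPM-1 (log2 change -2.06, SE 0.37), with DMSO replicate 1 the lowest of its group. ZNF223 had 177, 239 and 210 counts against 47, 12 and 78 (-1.92, SE 0.47), so that its 3 MPM-1 libraries were spread widely while its DMSO libraries were close. ZNF107 was even in both groups, with 312, 483 and 357 counts in DMSO and 82, 80 and 97 with MPM-1, from 9.87 ± 1.17 to 2.73 ± 0.147 CPM (-1.85, SE 0.18, edgeR's adjusted p = 3.08e-05). ZNF124, ZNF30, ZNF837, ZNF225 and ZNF689 completed the 12 largest falls, with log2 changes between -1.97 and -1.73. ZNF225 lost its call without DMSO replicate 2 (edgeR's adjusted p = 0.0591) and without MPM-1 replicate 3 (0.0613). Of these 12 genes only ZNF488 and ZNF837 had no KRAB box.

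**Figure D3:**
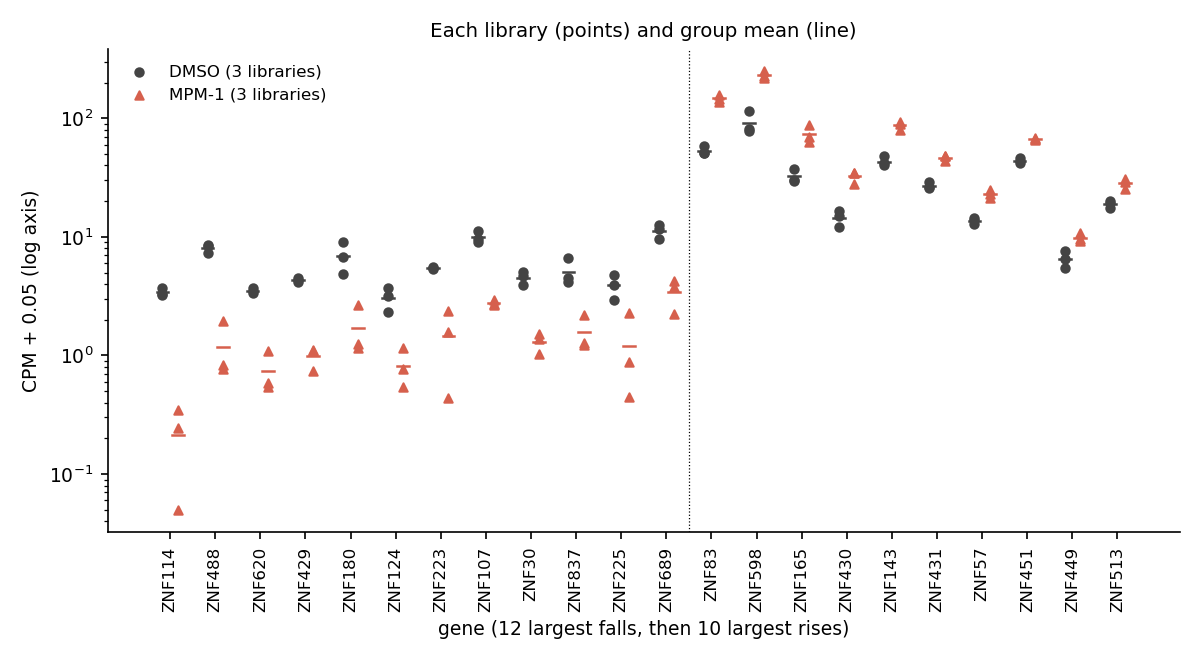
Level of the 12 ZNF genes with the largest falls and the 10 with the largest rises in each library, as CPM + 0.05 on a log axis, with DMSO as black circles, MPM-1 as red triangles and the group mean as a line. The treatments do not overlap in any of these genes by the rule that chose them, and most rises start from higher levels than the falls.

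The rises were fewer, and 15 of the 22 were in the 108 genes of at least 5 FPKM in DMSO. Among other genes the higher share also grew with level. It was 17.4% between 1 and 2 FPKM, 29.8% between 5 and 10 FPKM and 34.8% at 10 FPKM and over. ZNF83 had the largest, from 1909, 2209 and 2037 counts in DMSO to 4805, 4480 and 4626 with MPM-1, or 53.4 ± 3.89 to 147 ± 10.0 CPM. Its log2 change was 1.46 (SE 0.09, edgeR's adjusted p = 1.9e-06), and leaving out any library gave 1.42 to 1.52. ZNF83 is a KRAB gene on chromosome 19 overlapped on the same strand by the loci AC022150.2 and AC022150.4, and only 6 of the 102 such genes were higher.

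ZNF598 is a ubiquitin ligase that marks collided ribosomes. It had 3786, 3506 and 3127 counts in DMSO and 7604, 6743 and 7652 with MPM-1, from 91.5 ± 20.2 to 232 ± 15.6 CPM, a log2 change of 1.34 (SE 0.14, edgeR's adjusted p = 4.3e-05). DMSO replicate 1 was the highest DMSO library and lay well under the lowest MPM-1 library. ZNF143, an activator that binds many promoters of small nuclear RNA and protein-coding genes, had 1573, 1729 and 1659 counts against 2710, 2453 and 3121, a log2 change of 1.02 (SE 0.09, edgeR's adjusted p = 2.36e-05). ZNF165, a gene of the cancer-testis class, went from 32.3 ± 4.23 to 73.4 ± 12.5 CPM, a log2 change of 1.18 (SE 0.13). ZNF430, again a KRAB gene of chromosome 19, had 545, 521 and 591 counts in DMSO and 845, 1055 and 1170 with MPM-1, a log2 change of 1.16 (SE 0.14). These 5 genes were all of the higher calls with at least a 2-fold change.

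The remaining 17 higher genes changed less, from 0.25 (ZNF706) to 0.84 (ZNF44) on the log2 scale. ZNF431, ZNF57, ZNF451, ZNF449 and ZNF513 rose by 0.78, 0.74, 0.61, 0.60 and 0.59. ZNF451 works as a ligase for the modifier SUMO. The rise of ZNF449 was no longer called with scaling by library size alone (log2 change 0.45, edgeR's adjusted p = 0.0619). Among all 22 higher genes, ZNF44 was the gene whose libraries overlapped between treatments.

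Genes next to each other on chromosome 19 did not always move together. Ordered by position and parted wherever 1 Mb or more lay between a gene and the next ZNF gene of the table, the 125 members fell into 17 runs. The run at chr19:34734155-34964049 (GRCh38) held ZNF181, ZNF599, ZNF30 and ZNF792, and all 4 fell, with log2 changes of -1.16, -1.59, -1.83 and -1.62. ZNF30 had 128, 199 and 199 counts in DMSO and 30, 41 and 49 with MPM-1, with no overlap. In the run at chr19:36182060-37719790, 10 of 14 genes were lower and 0 were higher. In the largest, at chr19:55476332-58481230, 17 of 27 were lower and 3 were higher, and the 3 higher genes (ZNF628, ZNF579 and ZNF580) had no KRAB box. These runs and genes were chosen after their values were seen. Of all genes, 28.8% were lower and 27.7% were higher. Of the other genes of chromosome 19 with at least 1 FPKM, 33.3% were lower and 23.6% were higher.

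**Figure D4:**
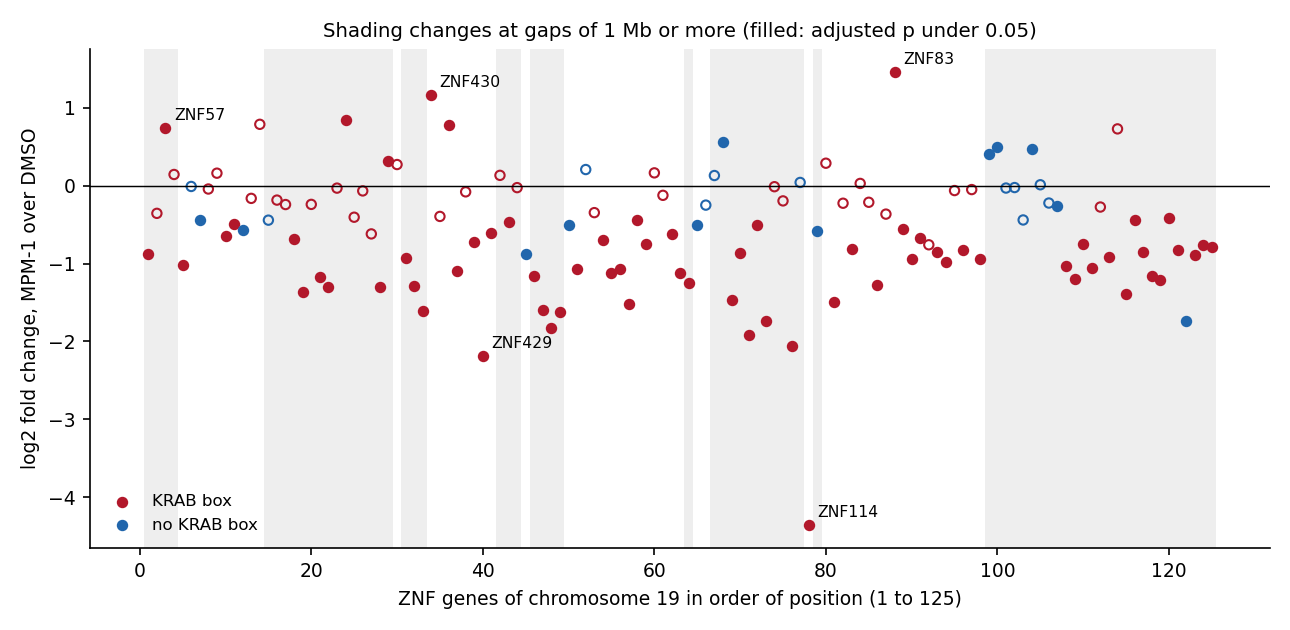
Log2 fold change of MPM-1 over DMSO for the 125 ZNF genes of chromosome 19 in order of position, red with and blue without a KRAB box, filled where the adjusted p was under 0.05, with shading that changes at gaps of 1 Mb or more. Higher genes stand near lower ones, with ZNF430 at 1.16 the first gene of its run and ZNF83 at 1.46 inside another.

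Mixed runs gave close relatives in opposite directions. At chr19:21020620-21767628, 8 KRAB genes stood in a row, of which ZNF430 and ZNF431 rose, ZNF708, ZNF493, ZNF429 and ZNF100 fell, and ZNF714 (-0.39) and ZNF738 (-0.08) did not pass. ZNF431 had 961, 1114 and 1046 counts in DMSO and 1461, 1339 and 1599 with MPM-1, from 27.1 ± 1.81 to 46.4 ± 2.46 CPM, with no overlap. ZNF429 went the other way, from 4.29 ± 0.162 to 0.934 ± 0.213 CPM. On the same strand, ZNF431 is overlapped by the locus VN1R82P and ZNF429 by LINC00664. Further along, ZNF83 rose while ZNF600 (-0.56), ZNF28 (-0.94), ZNF468 (-0.67), ZNF888 (-0.85) and ZNF816 (-0.98), on one side of it, fell. ZNF320 (-0.76), between ZNF468 and ZNF888, and ZNF808 (-0.36), on the other side of ZNF83, did not pass. Near-identical copies can exchange reads in counting, so values of such neighbours are less certain than those of single genes.

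The promoters of ZNF430, ZNF431 and ZNF429 are shown because these 3 neighbours are related in sequence and their RNAs moved in opposite directions. Each is the RefSeq window of GRCh38.p14 from 250 bases before to 50 bases after the start, 5′ to 3′ on the gene's strand, at chr19:21020407-21020706, chr19:21141790-21142089 and chr19:21505352-21505651, all on the plus strand. Capitals mark matches on either strand to CCGGAAG (read CTTCCGG on the other strand), to CCAAT and to TATAAA. Here these strings are called the ETS core, the CCAAT box and the TATA box.
ZNF430: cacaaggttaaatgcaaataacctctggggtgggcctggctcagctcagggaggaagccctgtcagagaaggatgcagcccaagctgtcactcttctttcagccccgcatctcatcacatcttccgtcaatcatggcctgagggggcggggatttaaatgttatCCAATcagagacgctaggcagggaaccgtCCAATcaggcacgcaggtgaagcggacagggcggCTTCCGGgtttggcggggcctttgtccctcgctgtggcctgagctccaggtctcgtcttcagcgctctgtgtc
ZNF431: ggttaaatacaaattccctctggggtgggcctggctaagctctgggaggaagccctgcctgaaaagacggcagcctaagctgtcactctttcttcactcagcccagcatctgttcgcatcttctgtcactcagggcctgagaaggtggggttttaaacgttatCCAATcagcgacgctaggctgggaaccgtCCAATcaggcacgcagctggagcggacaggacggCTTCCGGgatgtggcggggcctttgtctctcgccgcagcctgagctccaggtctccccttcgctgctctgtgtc
ZNF429: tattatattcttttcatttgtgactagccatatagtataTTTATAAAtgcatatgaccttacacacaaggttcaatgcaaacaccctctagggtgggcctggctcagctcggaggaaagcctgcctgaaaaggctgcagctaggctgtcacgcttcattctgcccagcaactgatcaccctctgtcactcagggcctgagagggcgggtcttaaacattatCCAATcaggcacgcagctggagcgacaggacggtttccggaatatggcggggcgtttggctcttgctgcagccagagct
The windows of ZNF430 and ZNF431 were identical at 254 of 295 aligned bases (86.1%), those of ZNF431 and ZNF429 at 202 of 232 (87.1%) and those of ZNF430 and ZNF429 at 196 of 236 (83.1%). Both genes that rose held 1 ETS core and 2 CCAAT boxes. The window of ZNF429 held 1 CCAAT box and a pair of overlapping TATAAA matches on opposite strands. The searched string CCGGAAG was not in it in full, but tttccgg stood where the other windows had CTTCCGG, a difference of 1 letter. The letters CCGGAA were kept there on either strand, so only an outer letter of the searched string differed. The TATAAA pair lay before the stretch that matches the start of the other windows, so the windows do not cover the same bases there. A match is a description of the letters, not a site.

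For contrast, the windows of the largest rise, ZNF83 (chr19:52690447-52690746, minus strand), and of ZNF620, the largest fall with an entry in the RefSeq table (chr3:40505789-40506088, plus strand), are given in the same way. That of ZNF83 held none of the motifs searched, and that of ZNF620 held 1 ETS core.
ZNF83: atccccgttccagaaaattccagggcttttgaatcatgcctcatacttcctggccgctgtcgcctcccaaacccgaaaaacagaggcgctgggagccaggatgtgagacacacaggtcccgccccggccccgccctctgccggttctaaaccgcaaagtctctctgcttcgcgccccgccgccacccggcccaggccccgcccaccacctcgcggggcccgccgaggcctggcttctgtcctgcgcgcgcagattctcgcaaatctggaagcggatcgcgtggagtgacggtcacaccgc
ZNF620: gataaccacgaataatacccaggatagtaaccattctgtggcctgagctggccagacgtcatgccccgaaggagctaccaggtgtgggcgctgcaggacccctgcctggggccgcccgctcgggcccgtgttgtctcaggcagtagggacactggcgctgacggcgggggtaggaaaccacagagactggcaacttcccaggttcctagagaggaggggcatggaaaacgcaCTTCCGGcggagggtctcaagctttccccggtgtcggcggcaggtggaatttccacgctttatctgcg
Over the 263 ZNF genes with an entry, the ETS core was in 41.8% of windows, against 10.7% of all 27305 promoters. CCAAT was in 47.9% against 35.7%, TATAAA in 3.8% against 12%, the ZNF143 core ACTACAA in 7.6% against 2.95%, and the NRF1 motif GCGCATGC in 6.46% against 3.27%. The ZNF windows had a median of 23 CpG dinucleotides against 14 in all promoters, and a median GC content of 62.3% against 58.3%. The set of all promoters was not limited to expressed genes, while the ZNF genes were. The part of expression, CpG and GC content in these motif differences was not tested. By the change of the gene, the ETS core was in 42.2% of windows of lower genes, 44.4% of higher genes and 41.2% of those that did not pass. ACTACAA was in 11 of 109 lower, 3 of 18 higher and 6 of 136 other windows.

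Named roles gave no single direction. Of 24 members from a list of ZNF genes with a described role, 5 were lower, 5 were higher and 14 did not pass, against 28.8% lower and 27.7% higher among all genes. ZNF703, a corepressor gene amplified in breast cancer, was among the most abundant and fell from 57.4, 59.9 and 53.3 FPKM to 17.7, 27.0 and 25.9 FPKM (log2 change -1.12, SE 0.14, edgeR's adjusted p = 0.000117 on the counts). ZNF367 fell from 16.4 ± 2.08 to 5.91 ± 0.757 CPM (-1.47, SE 0.17). ZNF217, an oncogene of the amplified region of chromosome 20, fell from 69.1 ± 0.880 to 47.6 ± 5.88 CPM (-0.54, SE 0.10). ZNF148, which binds GC-rich promoters, fell by 0.31 on the log2 scale, and lost its call without MPM-1 replicate 1 (edgeR's adjusted p = 0.0653).

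Beside ZNF598, ZNF143 and ZNF451, the higher genes of this list were ZNF622, which takes part in the late assembly of the large ribosomal subunit, and ZNF706. ZNF622 rose by 0.38 and ZNF706 by 0.25, and both lost the call without DMSO replicate 2 (edgeR's adjusted p = 0.0674 and 0.0830) and without DMSO replicate 3 (0.0646 and 0.102). ZNF706 also lost it without MPM-1 replicate 3 (0.0521), and both lost it with scaling by library size alone. ZNF593, which takes part in export of the large subunit, was the most abundant member at 82.8 FPKM and did not pass (log2 change 0.22, SE 0.11), with a call gained without MPM-1 replicate 1 (0.33, edgeR's adjusted p = 0.0247). ZNF511, the next in level at 66.9 FPKM, fell by 0.56, and ZNF226, at 45.7 FPKM, stood at -0.01 and did not pass.

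ZNF644, a partner of the methyltransferases EHMT1 and EHMT2, was the called gene whose FPKM went against its counts. Its CPM went from 32.1 ± 2.00 to 25.9 ± 2.77 (log2 change -0.31, edgeR's adjusted p = 0.031). Its FPKM was 5.68, 6.92 and 6.51 in DMSO and 9.53, 11.9 and 4.80 with MPM-1, higher in MPM-1 replicates 1 and 2 and lower in 3. The call was lost without any of DMSO replicates 2 and 3 and MPM-1 replicates 1 and 3 (edgeR's adjusted p of 0.0941 to 0.108).

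Single libraries decided 2 further genes of the list. ZNF395 had 96, 164 and 1116 counts in DMSO and 778, 742 and 938 with MPM-1. DMSO replicate 3 alone lay among the MPM-1 libraries, and the log2 change of 1.16 (SE 0.68) did not pass. Without that library it was 2.94 (edgeR's adjusted p = 1.07e-05). ZNF410, the activator of CHD4, had 1124, 1194 and 1161 counts in DMSO and 235, 1202 and 870 with MPM-1. MPM-1 replicate 1 stood apart, and the log2 change went from -0.32 to 0.12 without it, neither of them called. Genes that bind repeats or other chromatin, such as ZNF91 (0.13), known to repress SVA retrotransposons, and ZNF638 (-0.01), did not pass. ZNF10 (0.28), the source of the KRAB box used in engineered repressors, did not pass either.

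The genes whose proteins work with the KRAB box moved down more often than up. Of 35 genes in a list of TRIM28, its partners and the methylation and heterochromatin machinery, all measured, 18 were lower, 4 were higher and 13 did not pass, with a median log2 fold change of -0.21, against 28.8% lower and 27.7% higher among all genes. TRIM28 itself had 9567, 13137 and 11329 counts in DMSO and 4651, 5189 and 5626 with MPM-1, from 293 ± 10.2 to 163 ± 8.96 CPM, a log2 change of -0.85 (SE 0.07, edgeR's adjusted p = 1.7e-05). All MPM-1 libraries lay far below all DMSO libraries. SETDB1, by contrast, was at 24.8 ± 2.44 and 22.9 ± 1.69 CPM, with overlapping libraries (log2 change -0.12, SE 0.11, edgeR's adjusted p = 0.397).

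The 3 largest falls in that list were in methylation genes. UHRF1, which guides DNMT1 to replicated DNA, fell from 26.7 ± 4.89 to 6.27 ± 0.857 CPM (-2.09, SE 0.17). SUV39H1, a heterochromatin methyltransferase, fell from 14.2 ± 0.601 to 3.73 ± 1.21 CPM (-1.93, SE 0.23), and DNMT3B, which sets new DNA methylation, from 9.57 ± 0.809 to 4.68 ± 0.273 CPM (-1.03, SE 0.16). The 4 higher genes were MPHOSPH8 (0.51) and PPHLN1 (0.36), both of the HUSH silencing complex, MORC3 (0.50) and ATRX (0.36). FAM208A (TASOR), of that same complex, fell by 0.59. The call of ATRX was lost without DMSO replicate 1 (edgeR's adjusted p = 0.0536) or 2 (0.0525), with a GC and length offset (0.0534), with library size alone (0.132) and on the FPKM scale. TRIM33 stood at 0.85 (SE 0.52) and did not pass, with DMSO replicate 1 at 5.76 CPM apart from 42.7 and 41.0 in the other DMSO libraries. Whether the lower TRIM28 and the lower KRAB genes have anything to do with each other was not tested.

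**Figure D5:**
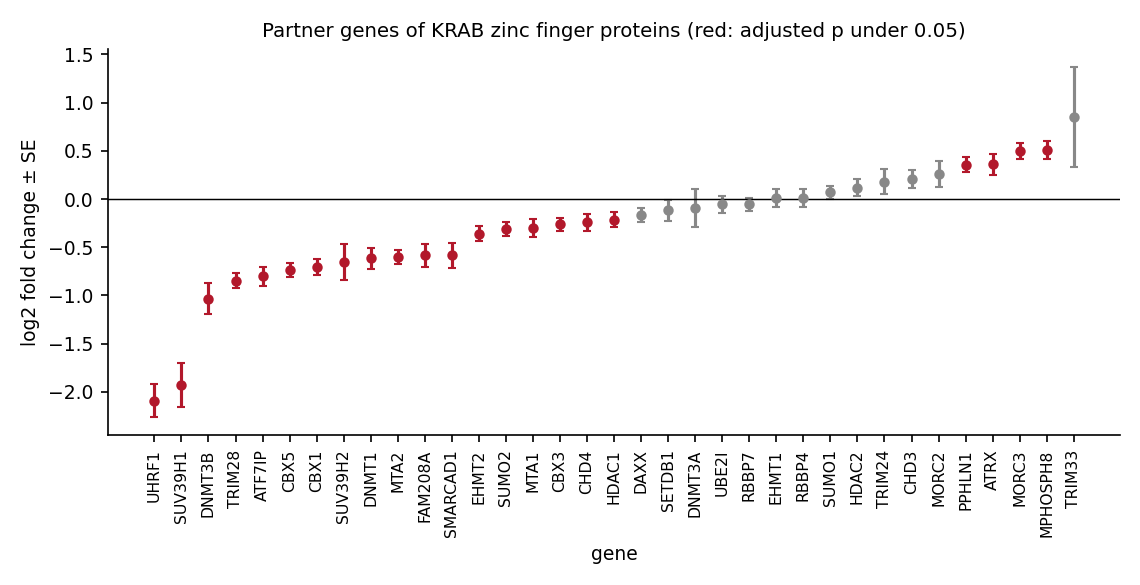
Log2 fold change of MPM-1 over DMSO with its standard error (bars) for the 35 genes whose proteins work with KRAB zinc finger proteins, red where the adjusted p was under 0.05. TRIM28 lies at -0.85 and SETDB1 at -0.12, and UHRF1 is lowest at -2.09.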

How the data were processed

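SW480 RNA was sequenced in 3 libraries per treatment (DMSO, MPM-1, each for 24 h), assigned by the sample labels. The authors deposited 1 table with the count and the FPKM of each gene per library, whole-number counts without normalization and FPKM scaled by them for length and library size. It also holds a log2 fold change and an FDR (adjusted p-value) per gene that the authors deposited for this comparison, which were not used. The submitters' processing notes name HISAT2, DESeq2 and the build mm10, although the identifiers are human. The counting and the annotation are not given in the sources used here.

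Counts were tested in R 4.3.3 with edgeR 4.0.16 (TMM, quasi-likelihood test, Benjamini-Hochberg over 12982 genes, no covariates). edgeR's default filter removed 0 genes. CPM used TMM library sizes, on which 3 counts in a library equal 0.0695 to 0.0985 CPM. Levels between genes are FPKM and differences rest on counts.

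Gene positions, GC content and overlaps came from GENCODE release 29 (GRCh38), which held 12127 of the 12982 identifiers. There, 110 members overlapped a gene on the same strand and 166 on the opposite strand. KRAB boxes were found with a profile of 29 residues built from 171 genes and searched in the longest open reading frame of each transcript (E-value at most 0.001), and C2H2 fingers by their spacing of cysteines and histidines. Motifs were searched on both strands. Promoters were aligned globally with free ends, and gaps were left out of the identity.

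Members, lists and groups were chosen with earlier results of these data known. Genes named are the 12 largest falls and 10 largest rises at an adjusted p under 0.05 without overlap between treatments, the 5 highest in level, 2 on each side of the cut, the role list, and in the partner list TRIM28, SETDB1 and the 3 largest changes each way. The chromosome 19 runs, the finger groups, the cross of KRAB box and chromosome, the selection by other levels, the motifs and the promoters shown were chosen after the values were seen. Alternatives were DESeq2 1.42.0 (size factors, test), library size alone, a mean of at least 50 counts, a GC and length offset and the replicate block. Others were limma 3.58.1 on log2(FPKM + 1) and on log2(FPKM + 0.1), other cuts and each library left out. The pseudocount of 1 understates changes of low genes. The labels do not say whether replicate numbers pair the libraries, and the main fit did not pair them.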

Additional observations from a re-analysis of the deposited data

How the results depend on the processing

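The number of lower ZNF genes (126) was 95 to 129 with any library left out, 81 when chosen by an MPM-1 mean of at least 1 FPKM and 36 at a DMSO mean of at least 5 FPKM. The number of higher ones (22) was 17 to 29 with a library left out and 14 with library size alone. Lower genes at the stricter call (44) numbered 31 to 53 with a library left out, 17 with limma on log2(FPKM + 1), 17 by MPM-1 mean, 25 at a DMSO mean of at least 2 FPKM and 4 at 5 FPKM, and higher ones (5) numbered 4 to 6, 2 with limma on log2(FPKM + 1) and 3 with log2(FPKM + 0.1). The median (-0.31) lay between -0.34 and -0.24 with a library left out, and was -0.46 with library size alone, -0.41 with limma on log2(FPKM + 0.1), -0.18 by MPM-1 mean and -0.16 at 5 FPKM. Partner genes that were higher (4) numbered 3 to 5 with a library left out, and 2 with library size alone and with limma at either pseudocount. The cuts at 2 and 5 FPKM left 225 and 108 genes and that by MPM-1 mean 249, and limma on FPKM was run with 290 of the members. The cause of these changes was not tested. With the replicate block, 123 genes were lower and 22 higher, and 48 and 5 at the stricter call. The correlation of same-numbered libraries was 0.021, 0.114 and -0.074, and not every library correlated best with its own number. With 3 libraries per treatment these values cannot settle whether the numbers pair the libraries. The block added a call for ZNF395 (1.89).

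Of 53 named genes under 15 alternatives, 717 of 789 values kept direction and call, 25 lost the call, 8 gained it and 39 changed sign. The changes of sign were in ZNF644 and in genes not called. DESeq2 size factors gave ZNF226 0.0072, ZNF638 0.0090, ZNF207 0.0064 and ZNF384 0.017, and DESeq2's test gave 0.0073, 0.0090, 0.0064 and 0.017. Limma on log2(FPKM + 1) gave ZNF226 0.066, ZNF638 0.070, ZNF207 0.33, ZNF644 0.33 and ZNF10 -0.14, and on log2(FPKM + 0.1) 0.067, 0.075, 0.34, 0.36 and -0.18. Library size alone gave ZNF91 -0.019 and ZNF326 -0.089. The GC and length offset gave ZNF326 -0.032 and ZNF384 0.12, and the block gave ZNF384 0.013. With a library left out, ZNF226 lay between -0.051 and 0.045, ZNF638 between -0.071 and 0.085, ZNF207 between -0.071 and 0.072, ZNF326 between -0.025 and 0.14, ZNF384 between -0.15 and 0.12, ZNF24 between -0.062 and 0.036 and ZNF410 between -0.82 and 0.12. Genes of few counts, such as ZNF114, are limited by depth.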
